A study of Neodesmus pupukensis with 4 samples.

Results

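The component comp1986_c0 is the largest group of assembled transcript sequences in an RNA sequencing study of a growing microalgal culture. It holds 212 of the 14905 sequences, or 1.42%, and was chosen by size alone, as the identifier stem shared by the most sequences. The next largest components hold 145 and 139 sequences, and 3740 of the 6216 components hold 1. The alga was strain UTEX2341, named Neodesmus pupukensis in the sample labels and Chlorella minutissima in the series' design text, a green microalga grown for its lipid. Total RNA of whole cells from a fed-batch shake-flask culture was sequenced at 14, 45, 57 and 88 h, with 1 library per time. The labels name no other treatment or genotype, and no source used here says whether the harvests share a flask. With 1 library per time, no difference between times has a replicate check, and intervals cover counting error only. In bulk RNA, fewer cells that hold a transcript and less of it per cell cannot be told apart.

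The identifiers have the form used by the assembler Trinity. Such an assembler builds transcripts from overlapping short words of the reads, and it places sequences that share words in 1 component. Where the words branch, each allowed path through the branches is written as a sequence of its own. A component can therefore hold splice forms, alleles, related genes, or separate transcripts that share a stretch. The files pair no identifier with a gene name, function or genome position, so the component is described by its lengths, levels and time courses.

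The 212 sequences were long and thinly covered. They measured 1296 to 16078 bases with a median of 7497, against a median of 2270 for all sequences, and 93.7% of all sequences were shorter than the median member. The component held 16 of the 40 sequences over 15000 bases in the whole assembly. The median member had 9, 16, 24 and 20 reads in the libraries of 14, 45, 57 and 88 h, where the median over all sequences was 251, 240, 135 and 136. Library totals were 11874560 to 12495251 reads. In RPKM, reads scaled by sequence length and library total, the median member stood at 0.0997, 0.180, 0.265 and 0.219 in the same order. The medians over all sequences were 10.3, 11.2, 5.38 and 5.52 RPKM. In every library 0 of the 212 members lay above the median RPKM of all sequences. The highest member value in any library was 2.29 RPKM, at 57 h. How reads that match several members were counted is not known, so a level per sequence need not be that of the members together. Members without a read numbered 3 in the 14 h library, 0 in that of 45 h, 1 in that of 57 h and 3 in that of 88 h, and a count of 0 allows up to 3 reads.

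The lengths fell into 6 classes separated by gaps of at least 700 bases. The classes held 3 sequences of 1296 to 1869 bases, 36 of 2953 to 3380, 4 of 4451 to 4622, 1 of 6493, 152 of 7222 to 8259 and 16 of 15322 to 16078. Sequence numbers ran from 1 to 212 in order of length, with 0 steps at which a higher number had a longer sequence. The numbering therefore follows length, and the order among sequences of equal length was not examined.

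Lengths in the large classes were sums of lengths in the smaller ones. Set C is the class of 36 and set D the class of 4 from 4451 to 4622 bases. Each C length added to each D length, less 182 bases, gave 144 lengths, and all 144 occurred in the class of 152, with repeats counted. Among 3000 constants tried, from 0 bases upward, 182 was the only one that gave this match. These 144 sequences, 7222 to 7820 bases long, are called set CD. The other 8 sequences of the class could be split into 4 and 4 in 35 ways. In 1 of them, sums of a length from each side, less 172 bases, gave all 16 lengths of the longest class exactly. The sides are called set A, of 7764, 7880, 8143 and 8259 bases, and set B, of 7730, 7838, 7883 and 7991 bases. The 16 longest sequences are called set AB. The sets use lengths alone, but they were drawn up after the reads had been seen. The 4 sequences of 1296, 1490, 1869 and 6493 bases entered no set. The joined lengths are arithmetic on lengths: no base sequence was analysed here, so shared stretches were not tested.

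Within each set, lengths differed by fixed steps that combined freely. The 4 lengths of set A were its shortest length with or without 116 bases and with or without 379 bases. Set B varied in the same way by 108 and 153 bases. The 16 lengths of set AB held every combination of 108, 116, 153 and 379 bases, which follows from how A and B were split. Set D varied by 39 and 132 bases. The 36 lengths of set C were every combination of 4 choices. These were 37 bases or none, 115 bases or none, an alternative of 0, 56 or 115 bases, and an alternative of 0, 74 or 160 bases. Set CD carried all 6 choices of C and D, which gave 144 combinations but 106 distinct lengths. In the component as a whole, 168 lengths were distinct among the 212 sequences. In the components of 145 and 139 sequences every length was distinct.

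The most heavily read sequences were those of set AB. Their counts were 194 to 252 reads at 14 h, with a median of 214.5. The 45 h library gave 172 to 218 with a median of 197.5, that of 57 h gave 71 to 89 with a median of 77.5, and that of 88 h gave 53 to 84 with a median of 69. The early and late ranges did not overlap, but they run over sequences that may share reads and are not replicates. How often other sequences show such a gap was not counted. The sequence comp1986_c0_seq1, the longest and the one with the most reads, had 252, 216, 80 and 81 reads in order of time. All 16 were at least 2-fold lower at 57 h than at 45 h, on reads per library total. With TMM scaling, which centres most sequences on no change, 0 of the 16 were 2-fold lower at that step, and 4 of 16 at 88 h against 14 h. Among all sequences, 23.3% and 24.3% were 2-fold lower under that scaling. On library totals, the 2-fold difference from 45 h to 57 h was met by 41.6% of all sequences. Their median log2 ratio at that step was -0.71. Summed over the set, reads went from 3150 at 45 h to 1258 at 57 h, for a log2 ratio of -1.35 (95% counting interval -1.45 to -1.26), or -0.65 relative to the median of all sequences. The sum had been 3519 at 14 h, and 45 h over 14 h gave a log2 ratio of -0.09 (-0.16 to -0.02). It was 1125 at 88 h, which over 57 h is a log2 ratio of -0.15 (-0.27 to -0.04).

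Only the 16 AB sequences reached a mean of 100 reads over the 4 libraries. Among them, the ratio of 88 h to 14 h was highest for comp1986_c0_seq7 and comp1986_c0_seq15, at log2 ratios of -1.15 (-1.55 to -0.78) and -1.32 (-1.72 to -0.95). It was lowest for comp1986_c0_seq10 and comp1986_c0_seq8, at -1.92 (-2.39 to -1.49) and -1.89 (-2.31 to -1.50). The counting intervals of the highest and lowest sequences overlapped slightly, which does not settle whether they differ. These 4 are the extremes picked from 16 sequences, so no order within the set is drawn from them.

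The 4 sequences of set A had the steepest course of the 6 sets between 45 h and 57 h. In order of time, the sequence of 8259 bases had 153, 148, 37 and 38 reads. That of 8143 bases had 146, 165, 27 and 39 reads, and that of 7880 bases 130, 125, 19 and 31. The shortest, of 7764 bases, had 137, 131, 31 and 25 reads. All 4 were high in both early libraries and low in both late ones, and the ranges did not overlap. The 4 may share reads and are not replicates, and the share of all sequences with this pattern was not counted. Their sum went from 569 reads at 45 h to 114 at 57 h, for a log2 ratio of -2.35 (-2.65 to -2.06), or -1.64 relative to the median of all sequences. In each of the 4 the whole counting interval lay beyond 2-fold, which held for 31.6% of all sequences. Per length, the median of the set was 1.42, 1.47, 0.301 and 0.353 RPKM in order of time.

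Set B, close to set A in length, showed a smaller difference at the same step. The sequence of 7991 bases had 92, 71, 43 and 45 reads at 14, 45, 57 and 88 h. That of 7883 bases had 66, 52, 41 and 41 reads, that of 7838 bases 77, 65, 48 and 43, and that of 7730 bases 74, 72, 61 and 49. Each sequence had its lowest counts in the late libraries, but the ranges at 45 h (52 to 72) and 57 h (41 to 61) overlapped, and 0 of the 4 was 2-fold apart. Summed reads went from 260 at 45 h to 193 at 57 h, for a log2 ratio of -0.46 (-0.74 to -0.19). The direction depended on the scale. Relative to the median of all sequences the ratio was 0.25, and with TMM scaling it was 0.24. From 14 h to 88 h the log2 ratio was -0.75 (-1.02 to -0.48) on library totals and 0.023 with TMM. The counting intervals of sets A and B at the step from 45 h to 57 h did not overlap, and a shared scale shift leaves that gap as it is. Reads may be counted more than once within each set, which would make these intervals too narrow, and the difference was not tested.

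**Figure D1:**
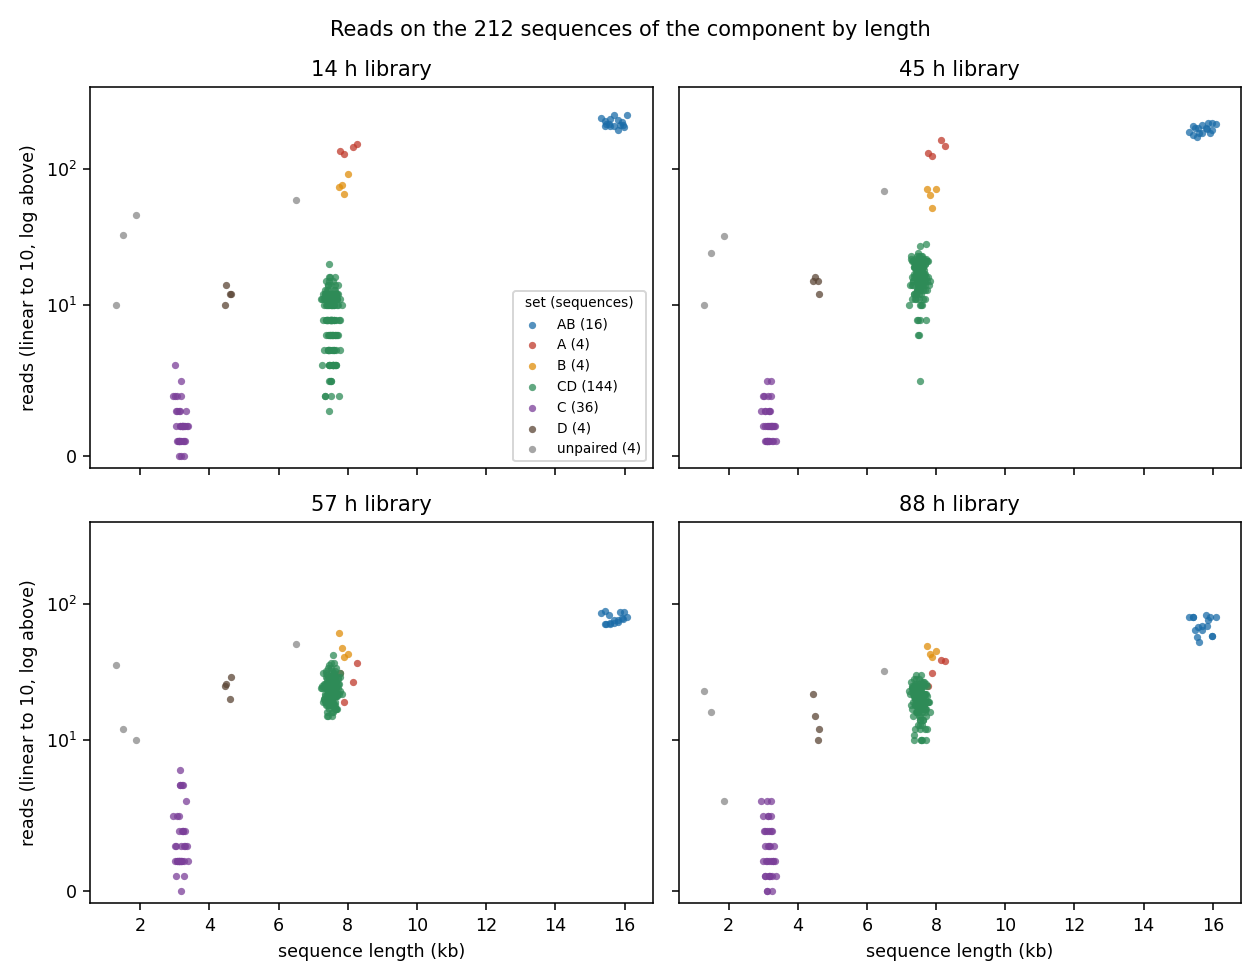
Reads (vertical axis, linear up to 10 and logarithmic above) against length in kb for each of the 212 sequences, in a panel per library and coloured by set. At 14 h set CD lies at 3 to 20 reads, below the sequences of similar length in sets A (130 to 153) and B (66 to 92), and at 57 h the CD range of 15 to 42 reads overlaps the A range of 19 to 37.

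Set CD moved opposite to sets A and AB at the step from 45 h to 57 h. Its 144 sequences had 3 to 20 reads at 14 h (median 9) and 5 to 28 at 45 h (median 16). The late libraries gave 15 to 42 reads at 57 h (median 24) and 10 to 30 at 88 h (median 20). The highest median was at 57 h, and neighbouring times overlapped. On reads per library total and with no fold asked for, 136 of the 144 (94.4%) were higher at 45 h than at 14 h, where 48.8% of all sequences were. At the next step, to 57 h, 124 (86.1%) were higher, against 30.3% of all sequences. At 88 h 38 (26.4%) were higher than at 57 h, against 42.4%, and 140 (97.2%) were higher than at 14 h, against 31.1%. The set's reads summed to 1368, 2382, 3505 and 2867 in order of time. The log2 ratio of the sums was 0.87 (0.78 to 0.97) for 45 h over 14 h, 0.53 (0.45 to 0.60) for 57 h over 45 h and -0.28 (-0.36 to -0.21) for 88 h over 57 h. Between 14 h and 88 h it was 1.12 (1.02 to 1.21). Relative to the median of all sequences, the step from 45 h to 57 h was 1.24. These comparisons share libraries, so they are not independent of each other. The 144 sequences may share reads and are not replicates, so the numbers of higher sequences do not count independent results. Shared reads would also make the intervals of the sums too narrow.

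Single CD sequences were too thinly read to be separated. Their counts varied about as much as independent draws with 1 common mean would. The variance over the 144 sequences divided by the mean was 0.88, 1.04, 1.02 and 0.968 in order of time, where independent counting gives a ratio of 1. For set AB the same ratio was 1.25, 1.04, 0.502 and 1.51. None of the 212 sequences shared its 4 counts with another member, so 212 distinct count profiles were seen. No source used here says how the authors placed reads that match several sequences. If such reads were divided among the members, the RPKM of a single sequence is lower than that of its set, and if they were counted on each, the sums count them repeatedly.

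The parts C and D had fewer reads. Set D counted 10, 14, 12 and 12 reads at 14 h for its sequences of 4451, 4490, 4583 and 4622 bases. In the same order the 45 h library counted 15, 16, 15 and 12, the 57 h library 25, 26, 20 and 29, and the 88 h library 22, 15, 10 and 12. All 4 were highest at 57 h, where the range of 20 to 29 lay above the 12 to 16 of 45 h. These 4 are not replicates either, and the share of all sequences highest at 57 h was not counted. Summed D reads went from 58 to 100 at that step, a log2 ratio of 0.76 (0.27 to 1.25), and back to 59 at 88 h, a log2 ratio of -0.75 (-1.24 to -0.28). Set C had 0 to 6, 1 to 5, 0 to 8 and 0 to 6 reads a sequence in order of time, which allows no statement on single sequences. Its sums were 76, 81, 123 and 100 reads, with a log2 ratio of 0.57 (0.16 to 0.99) for 57 h over 45 h. At that step the intervals of sets C, D and CD overlapped. From 14 h to 45 h the interval of set CD, 0.87 (0.78 to 0.97), lay above that of set C, 0.17 (-0.30 to 0.64). The interval of set D, 0.35 (-0.23 to 0.93), overlapped both. Reads may be counted more than once over the CD sequences, which would make the CD interval too narrow. The difference between CD and C was not tested.

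**Figure D2:**
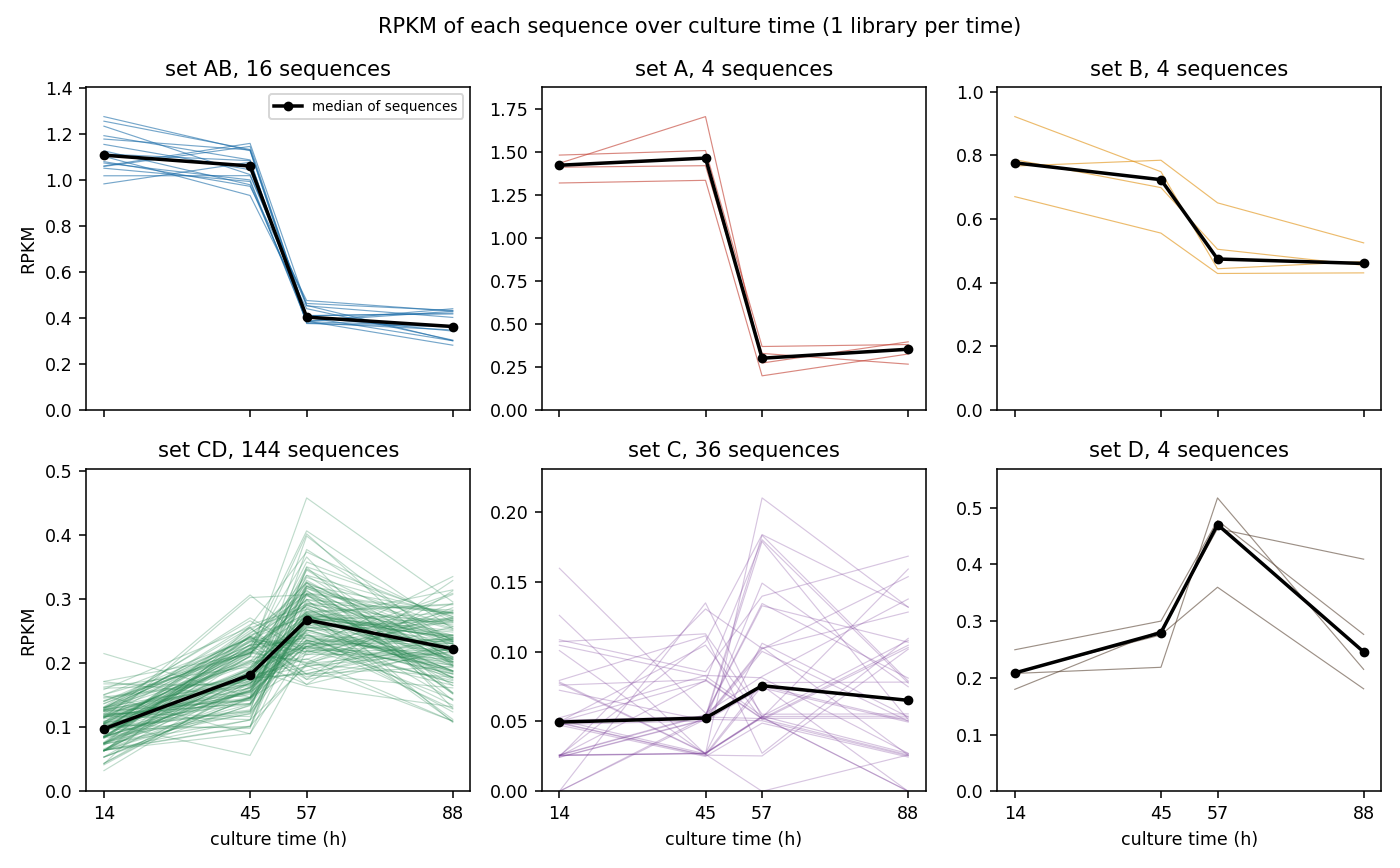
RPKM (vertical axis, from 0, with a scale of its own in each panel) against culture time in hours, with a thin line per sequence and the median in black, in a panel per set. The medians of AB and A drop between 45 h and 57 h (A from 1.47 to 0.301 RPKM), while those of CD, C and D are highest at 57 h (CD at 0.267 RPKM).

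On average, reads on the joined-length AB sequences were close to the sum over their parts. At 14 h an AB sequence had on average 219.9 ± 16.6 reads (SD over 16 sequences), and the matching A and B sequences together had 218.8, of which 141.5 were on A and 77.2 on B. The averages were 196.9 ± 14.3 and 207.2 in the 45 h library, 78.6 ± 6.28 and 76.8 in that of 57 h, and 70.3 ± 10.3 and 77.8 in that of 88 h. The ratio of average AB reads to the average sum of its parts was 1.01, 0.95, 1.02 and 0.904 in order of time. These averages stay the same however A and B sequences are paired, so they do not bear on the match of lengths. For single AB sequences and their matching parts, the ratio ran from 0.87 to 1.14 at 14 h and from 0.69 to 1.18 at 88 h. The share of A in the summed parts moved with the courses of A and B, from 141.5 of 218.8 reads at 14 h to 28.5 of 76.8 at 57 h. The AB log2 ratio between 45 h and 57 h, -1.35, lay between the -2.35 of A and the -0.46 of B. For set CD the ratio of the averages was less even. It was 0.673, 0.988, 0.857 and 1.14 in order of time, with averages of 9.5 ± 2.89 reads on CD and 14.1 on the parts at 14 h. For single CD sequences it ran from 0.21 to 1.38 at 14 h and from 0.46 to 2.31 at 88 h.

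**Figure D3:**
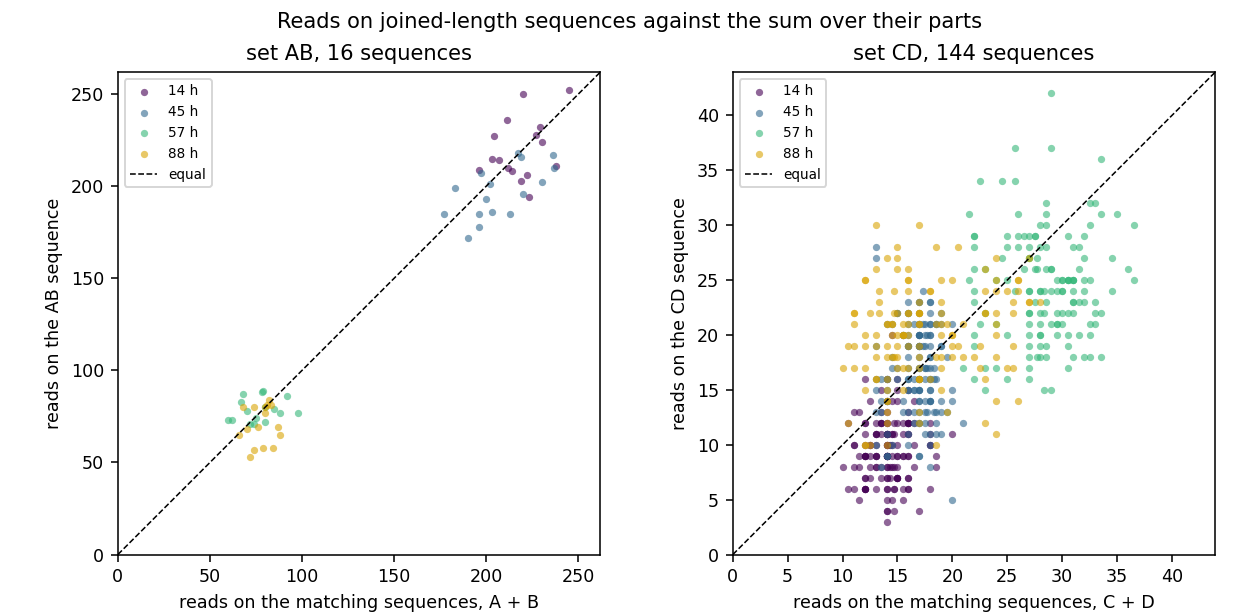
Reads on each AB sequence (left) and each CD sequence (right) against the summed reads of the A and B or C and D sequences whose lengths add up to it, averaged where several pairs give the same length. Points are coloured by library and the dashed line marks equality: AB points lie near it in all 4 libraries (ratios of the averages 0.904 to 1.02), and most CD points of 14 h lie below it (ratio 0.673).

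The 4 sequences outside the sets differed among themselves. The shortest member, comp1986_c0_seq212 of 1296 bases, had 10, 10, 36 and 23 reads in order of time, and it had the highest mean RPKM of the component, at 1.26. At 57 h over 45 h its log2 ratio was 1.77 (0.78 to 2.99). The sequences of 1490 and 1869 bases went the other way, with 33, 24, 12 and 16 reads and with 46, 32, 10 and 6 reads. That of 1869 bases had a log2 ratio of -2.79 (-4.41 to -1.66) between 14 h and 88 h. The sequence of 6493 bases had 59, 69, 51 and 32 reads, within 2-fold of its 14 h level at each later time.

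Counted over the component, both directions were equally frequent at the step from 45 h to 57 h. Of 176 members whose mean over the pair of libraries reached 10 reads, 22 were higher by 2-fold or more and 22 were lower to that degree, 12.5% each. The background over all 13963 sequences tested was 11.8% higher and 41.6% lower. The share of higher members was thus near the background, and the share of lower ones below it. All 36 sequences that did not enter were those of set C. The 22 lower members were the 16 of AB, the 4 of A and 2 outside the sets, and the 22 higher ones were 20 of CD, 1 of D and 1 outside the sets. The median log2 ratio of the 176 was 0.44, against -0.71 for all sequences. With all 212 members and no filter, 32 were higher and 25 lower, with a background of 12.2% and 40.8%. With TMM scaling 103 were higher and 4 lower, with a background of 23.4% and 23.3%. The 4 were set A, and the 103 were 98 of CD, the 4 of D and 1 outside the sets.

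The other pairs of libraries differed in their split. Between 14 h and 45 h, 48 of 154 entering members were higher by 2-fold or more and 0 lower, where the background was 10.4% and 5.81%. All 48 were CD sequences, and the median log2 ratio was 0.70, against -0.02 for all sequences. From 57 h to 88 h, 0 of 175 were higher and 10 lower, with a background of 2.09% and 1.11%. Over the whole course, 88 h against 14 h, 84 of 172 were higher and 21 lower, with a background of 14.3% and 44.2%. The 84 comprised 82 CD sequences, 1 of D and 1 outside the sets. Of the 144 CD sequences, 122 entered for 45 h against 14 h, 140 for 88 h against 14 h and all for the other pairs. A CD sequence could pass the filter through its later library alone, so these counts do not describe all members. The members may share reads and are not replicates. Without the filter, 64 of 212 were higher and 5 lower between 14 h and 45 h, with a background of 11.1% and 6.44%. Between 14 h and 88 h they were 94 and 26, with a background of 14.7% and 43.2%. A stricter rule asked that all of the counting interval exceed 2-fold. It left 1 member higher and 0 lower between 14 h and 45 h, with a background of 5.63% and 2.41%. Between 45 h and 57 h it left 0 higher and 11 lower, with a background of 8.34% and 31.6%. Between 14 h and 88 h it left 4 higher and 19 lower, with a background of 9.77% and 34.2%.

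**Figure D4:**
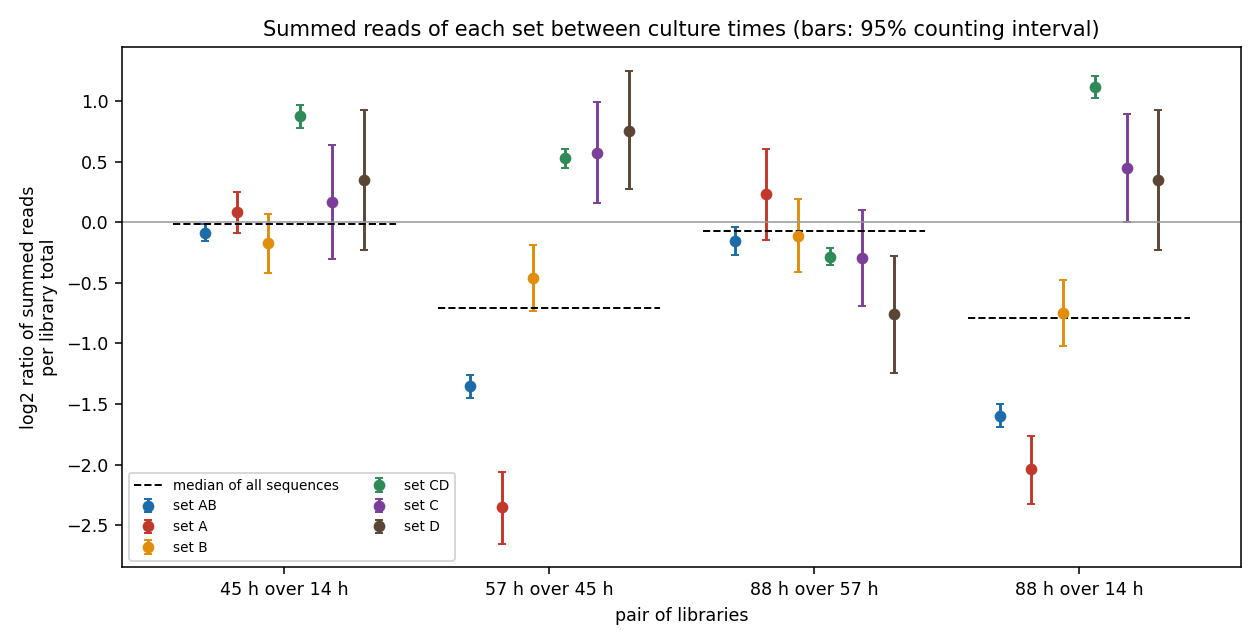
Log2 ratio of each set's summed reads per library total for 4 pairs of libraries, with 95% counting intervals, and the median log2 ratio of all sequences as a dashed line. At 57 h over 45 h sets A (-2.35) and AB (-1.35) lie below that median (-0.71), set B (-0.46) lies close above it, and CD, C and D lie above 0.

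A straight line on culture time was tested over the 4 libraries with edgeR's quasi-likelihood test, which leaves 2 residual degrees of freedom. Of 176 members averaging 10 reads or more, 0 passed an adjusted p of 0.05, and so did 0% of all 13975 sequences tested. The lowest adjusted p of a member was 0.23. At an unadjusted p under 0.05 there were 35 members (19.9%) with a higher and 1 (0.568%) with a lower level over time, against 10.9% and 10.5% of all sequences. Without TMM factors these became 1 and 5 members (0.568% and 2.84%), against 4.16% and 18.4%, so the split rests on the scaling. DESeq2 called 0 members, while it called 900 higher and 556 lower sequences in all (6.44% and 3.98%). Unadjusted, DESeq2 had 36 members higher (20.5%) and 0 lower, against 15.7% and 11.7% of all sequences. A course that steps between 45 h and 57 h, or peaks at 57 h, departs from a line and counts as error in this test.

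The presence of both directions in 1 component was uncommon in the series. Of 2409 components with 2 or more sequences over the filter, 38, or 1.58%, held members beyond 2-fold in both directions for 57 h over 45 h, and comp1986_c0 was 1 of them. Among the 55 components with at least 20 such sequences there were 7. The standard deviation of the log2 ratio over its 176 members was 0.85, the 8th highest of those 55, whose median was 0.46. All 145 sequences of the second largest component were at least 2-fold higher at that step, and in the third 0 of 139 were higher and 6 lower. Large components have more chances to hold both directions, and the difference between components was not tested.

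As a whole the component's summed counts stood at 0.0483% of the stated total of the 14 h library (0.0471 to 0.0495%, the exact binomial interval at 95%). This value was 0.0559% (0.0545 to 0.0572%) in the 45 h library, 0.0445% (0.0434 to 0.0457%) in that of 57 h and 0.0376% (0.0365 to 0.0387%) in that of 88 h. Counts over all sequences came to 1.27 to 1.36 times the stated totals. The values are therefore not true shares of reads, and their intervals are too narrow. Over all counted reads the 14 h value was 0.0359%. The lower value after 45 h joined opposite parts, since summed AB reads were 3150 at 45 h and 1258 at 57 h while summed CD reads were 2382 and 3505. The direction for the component depended on the scale. For 57 h over 45 h its log2 ratio was -0.33 on library totals and 0.37 with TMM scaling. For 88 h over 14 h it was -0.36 and 0.41. At 14 h AB held 3519 of the component's 6034 reads and CD 1368, and at 88 h AB held 1125 of 4539 and CD 2867.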

How the data were processed

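RNA sequencing libraries of 4 culture times, 1 each, were compared. Per the file headers, the authors deposited read counts per assembled sequence, the library total, the sequence length and RPKM values. The deposited RPKM equalled the count per kilobase and stated total to within 3.8e-11. BWA is named per the submitters' processing notes. No source used here gives the assembler, the reference, read filters, strand, or where a read with several matching sequences was counted. Counts summed to 1.27 to 1.36 times the stated totals, so reads may be counted more than once and counting intervals are too narrow.

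Log2 ratios were taken as reads plus 0.5 over the library total (no pseudocount for summed sets), for sequences averaging 10 reads or more over the pair. A 2-fold ratio was counted, with exact conditional binomial 95% intervals. The trend was fitted with edgeR on all sequences, with Benjamini-Hochberg adjustment. Sequences named by identifier are, among members averaging 100 reads or more, the 2 highest and 2 lowest ratios of 88 h to 14 h, plus the longest, the shortest and those with the most reads and highest mean RPKM. Others are given by length, chosen after their values were seen. The component, comparisons and sets were chosen with earlier results of these data known. The ratio and the trend were tested on simulated data. The simulated trend used 13934 sequences with Poisson counting error. Calls were made for 100% of increases and 100% of decreases of 4-fold, and for 0.0947% of unchanged sequences. The changed sequences were drawn only from those averaging at least 50 reads. Their log levels were set to follow a straight line on time, the shape that the test fits. The rates therefore do not show how often a change in thinly read members, such as those of sets C, D and CD, would be called. The same limit holds for courses that step or peak. Software was R 4.3.3 with edgeR 4.0.16 and DESeq2 1.42.0, and Python 3.11.15 with scipy 1.17.1, pandas 2.3.3, numpy 2.4.6 and, for plots, matplotlib 3.10.9.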

Additional observations from a re-analysis of the deposited data

How the results depend on the processing

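Of 136 alternative values, 80 stayed within 1.5 times the count, or within the counting interval of the value, as reported. Percentages in brackets are the share of all sequences under the same setting. For 45 h against 14 h, members higher numbered 0 with a floor of 50 reads (9.4%), 23 with a pseudocount of 5 reads (9.37%) and 1 with the whole interval beyond 2-fold (5.63%), members lower numbered 5 with no filter (6.44%), and the median log2 ratio was -0.081 with the floor of 50. For 57 h against 45 h, members higher numbered 103 under either of TMM and median-of-ratios factors (23.4% for each), 34 with the sum of counts as library size (13%), 0 with the floor of 50 (11.9%), 12 with the pseudocount of 5 (11.1%) and 0 with the interval rule (8.34%). Members lower numbered 4 under either of those scalings (23.3% for each) and 11 with the interval rule (31.6%), and the median was -1.37 with the floor of 50. From 57 h to 88 h, 4 rather than 0 members were higher (3.3%) and 18 lower (2.35%) with no filter. With the floor of 50, the pseudocount of 5 and the interval rule, 0 (0.158%), 2 (0.43%) and 0 (0%) were lower. Between 14 h and 88 h, 135 were higher (25.7% and 25.9%) and 9 lower (24.3% and 24.1%) under either of TMM and median-of-ratios factors. Members higher numbered 0 (13.3%), 47 (13.5%) and 4 (9.77%) with the floor of 50, the pseudocount of 5 and the interval rule, and the median was -1.63 with the floor of 50. The floor of 50 left 17 to 25 members and no sequence of C, D or CD. Over the sum of counts, the component took 0.0359%, 0.0410%, 0.0344% and 0.0295% of reads in order of time. Scaling of the sets was added after seeing the data. Under TMM and then median-of-ratios factors, the log2 ratio for 57 h over 45 h was -0.66 and -0.66 for AB, -1.65 and -1.65 for A, 0.24 and 0.24 for B, 1.23 and 1.23 for CD, 1.27 and 1.27 for C, and 1.45 and 1.45 for D. That of 88 h to 14 h was -0.83 and -0.82 for AB, -1.27 and -1.26 for A, 0.023 and 0.030 for B, 1.89 and 1.89 for CD, 1.22 and 1.22 for C, and 1.12 and 1.12 for D. Both scalings centre most sequences on no change, so set B reversed. The trend called 0 members under each alternative, with a lowest adjusted p of 0.0565 with DESeq2 and of 0.0567 to 0.999 when a library was left out. Over all sequences, DESeq2 called 6.44% higher and 3.98% lower, leaving out the 45 h library 1.29% and 2.99%, leaving out the 57 h library 3.85% and 1.36%, and the other settings 0%. No paired analysis was possible because a single library stands for each time.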

Other observations

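The 16 AB sequences split evenly, 8 and 8, by each of the 4 steps in length, so reads could be compared with and without each step. Summed over the 4 libraries, the 8 sequences with the 379 bases had 4622 reads and the 8 without had 4430, a ratio of 1.04 (95% counting interval 1.001 to 1.09), where their summed lengths stand at a ratio of 1.02. For the steps of 108, 116 and 153 bases the ratios were 0.989 (0.949 to 1.03), 0.978 (0.938 to 1.02) and 0.989 (0.949 to 1.03), against length ratios of 1.01, 1.01 and 1.01. The reads with the 153 bases were lower at 88 h, at 529 against 596, a ratio of 0.888 (0.788 to 0.9995), but not at 45 h, at 1614 against 1536. Those with the 379 bases were higher at 45 h, at 1637 against 1513, a ratio of 1.08 (1.01 to 1.16). These were 2 of 16 comparisons over libraries and steps whose counting interval missed a ratio of 1, and no test was made. For the 379 bases, the length ratio of 1.02 lay inside the interval at 45 h and inside that of the 4 libraries summed. Reads there were thus within counting error of the ratio of lengths. For the 153 bases at 88 h, the length ratio of 1.01 lay outside.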
